A study of Mus musculus with 3 samples.

Results

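The promoters of long noncoding RNAs (lncRNAs) were examined in DNase-seq libraries of mouse monocytes. Their start sites were taken from the GENCODE M21 basic annotation of mm10, as transcription start sites (TSSs) of autosomal genes of type lincRNA or antisense. A TSS counted as a member when it lay more than 1 kb from every TSS of a protein-coding transcript, and the region measured was 1 kb to each side. Of 9354 autosomal lincRNA and antisense TSSs, 7981 met the rule and 1373 did not, out of 72164 autosomal TSSs of all gene types. The members comprised 5567 lincRNA TSSs of 4881 genes and 2414 antisense TSSs of 2143 genes. Since neighbouring windows overlap, the 7981 members formed 7167 separate loci. The cells were primary monocytes of female adult B6CASTF1/J mice aged 2 months, an F1 hybrid of C57BL/6J and CAST/EiJ. There was 1 group of 3 libraries, numbered as biological replicates 1, 2 and 4, with 1 donor identifier shared by all. Separate animals are not stated for them, so their spread may be technical.

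An lncRNA is an RNA polymerase II transcript that encodes no protein. The lincRNA type is named for lying between genes, and the antisense type for being transcribed across from a coding gene. Position did not separate them fully here. Of the lincRNA member TSSs, 228 lay inside a coding gene on the opposite strand and 59 on the same strand. Of the antisense member TSSs, 533 lay outside coding genes. Some lncRNAs act in the nucleus, such as the scaffold of paraspeckles, some silence neighbouring imprinted genes, and others are the precursors of microRNAs or small nucleolar RNAs. DNase I cuts DNA where nucleosomes are displaced, and active promoters are such places. A peak is a stretch of concentrated cutting. A footprint is a short stretch inside a cut region that is itself protected, as bound proteins leave it.

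Before the counts, 5 peaks in lncRNA windows are shown at the level of bases. Malat1 makes an abundant nuclear RNA, Mir142hg is a blood cell microRNA host, Mirt1 is from the immune list, Kcnq1ot1 is imprinted and Gm20732 lies far from any accessible coding promoter. Each is the tallest peak of replicate 1 at that TSS, trimmed to bases inside peaks of all 3 libraries and to at most 300 bases. Their replicate 1 heights were 9.94, 7.15, 2.65, 3.56 and 10.5 in that order, all above the median of 1.19 over lncRNA windows with a peak. Only the Mir142hg and Kcnq1ot1 runs contain the TSS. It lies 1109 bases after the first base of the 260-base Malat1 run. For the 300-base Mirt1 run it lies 326 bases after, and for the 180-base Gm20732 run 344. The letters are those of the GRCm38.p6 reference on the strand of the lncRNA, and capitals mark bases under footprints of all 3 libraries.
Malat1, chr19:5803521-5803780, minus strand: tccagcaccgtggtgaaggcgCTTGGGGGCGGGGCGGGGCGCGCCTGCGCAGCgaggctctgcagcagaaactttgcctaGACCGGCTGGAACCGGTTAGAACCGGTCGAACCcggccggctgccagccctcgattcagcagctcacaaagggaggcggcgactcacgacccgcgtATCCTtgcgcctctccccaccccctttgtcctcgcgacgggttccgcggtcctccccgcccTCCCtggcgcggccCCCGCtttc
Mir142hg, chr11:87755441-87755640, plus strand: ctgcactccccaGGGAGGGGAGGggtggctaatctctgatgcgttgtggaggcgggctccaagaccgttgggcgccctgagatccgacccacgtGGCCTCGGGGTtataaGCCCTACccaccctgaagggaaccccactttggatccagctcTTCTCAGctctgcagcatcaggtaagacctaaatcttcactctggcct
Mirt1, chr19:53464810-53465109, minus strand: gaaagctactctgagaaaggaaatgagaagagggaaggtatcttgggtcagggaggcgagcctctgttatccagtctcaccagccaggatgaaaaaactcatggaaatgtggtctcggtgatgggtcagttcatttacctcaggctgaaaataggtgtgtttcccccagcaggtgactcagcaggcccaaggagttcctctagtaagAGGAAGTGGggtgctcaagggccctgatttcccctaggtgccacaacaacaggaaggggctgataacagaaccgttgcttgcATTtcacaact
Kcnq1ot1, chr7:143296541-143296740, minus strand: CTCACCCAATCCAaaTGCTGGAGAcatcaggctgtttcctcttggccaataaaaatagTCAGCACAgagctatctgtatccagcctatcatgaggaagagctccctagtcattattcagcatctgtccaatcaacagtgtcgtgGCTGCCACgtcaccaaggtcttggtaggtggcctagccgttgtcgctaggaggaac
Gm20732, chr15:68363341-68363520, minus strand: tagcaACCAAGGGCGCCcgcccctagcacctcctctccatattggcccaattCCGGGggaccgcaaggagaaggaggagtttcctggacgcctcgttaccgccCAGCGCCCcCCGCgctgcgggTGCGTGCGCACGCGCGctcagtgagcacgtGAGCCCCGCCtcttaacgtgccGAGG
Footprints of all 3 libraries covered 30.4% of the Malat1 run and 32.8% of the Gm20732 run. They covered 18% of the Mir142hg run, 19% of the Kcnq1ot1 run and 4% of the Mirt1 run. The Mir142hg run held TATAA 31 bases before its TSS at base 137, in lower case between 2 footprinted stretches. The first footprinted stretch of the Malat1 run held GGGCGG, a letter pattern of SP and KLF factors, at bases 27 and 32. In the Mirt1 run, 7 of the 8 letters of GAGGAAGT, which PU.1 is known to bind, lay in capitals from base 207. A letter match is a description of the sequence and not a measured binding site.

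The longer peak list of each library held 54046, 42657 and 48980 peaks in replicates 1, 2 and 4, with a median height of 0.932, 0.975 and 1.14. Height is the signal value that the authors deposited for each peak, and its scale is not given in the sources used here. Promoters of 7 of 9 monocyte marker genes, among them Csf1r, Cx3cr1, Cd14 and Lyz2, had a peak in all 3 libraries, while Ccr2 had none and Ly6c2 had one in some. Among 4 T cell, 4 B cell, 3 natural killer, 4 erythroid, 4 neutrophil and 3 hepatocyte marker genes, no promoter was covered in all 3 libraries. A peak height is an average over many cells, so access in fewer cells and weaker access in each cell cannot be told apart.

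Most lncRNA promoters were closed in these monocytes. A window is called open here when a peak overlaps it by at least 1 bp, and 777 of the 7981 lncRNA TSSs were open in all 3 libraries (9.74%), against 19729 of 39540 coding TSSs (49.9%). As a floor for comparison, 22110 of 1172446 consecutive 2 kb stretches centred more than 1 kb from any coding TSS were open in all 3 (1.89%). A further 124 lncRNA TSSs were open in 2 libraries, 208 in 1 library and 6872 in none. By gene, 684 of 7024 had at least 1 TSS open in all 3 libraries (9.74%). Of 714 genes with several member TSSs, 66 had every one open and 52 had only some open. The Malat1 gene is of the second kind, since 2 of its 4 member TSSs were open in all 3 libraries and the other 2 in none.

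In single libraries the open share of lncRNA TSSs was 12.6%, 10.7% and 11.7% in replicates 1, 2 and 4, against 53.7%, 51.7% and 52.4% of coding TSSs. The difference was -41.0 ± 0.198 percentage points (SD of the paired differences, n = 3 libraries). Against the 2 kb stretches the lncRNA share was higher by 8.99 ± 0.588 points. Both differences far exceeded the spread between libraries. With 3 libraries the exact sign-flip permutation test, 2-sided, cannot go below p = 0.25, and all 25 main paired comparisons gave that value, before and after Benjamini-Hochberg adjustment. Each of the 25 had the same sign in all 3 libraries, so the text below gives sizes and spreads. The libraries shared open windows to different degrees. Of the 1109 lncRNA TSSs with any peak, 70.1% had one in all 3 libraries, compared with 89.99% of such coding TSSs and 52.9% of such stretches.

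Distance to an accessible coding promoter ordered the lncRNA promoters. A coding TSS with a peak in all 3 libraries is called an open coding TSS below. Of 124 lncRNA TSSs 1 to 2 kb from one, 47.6% were open in all 3 libraries. The share was 20.6% of 253 TSSs at 2 to 5 kb, 16.7% of 867 at 5 to 20 kb, 12.7% of 2611 at 20 to 100 kb and 4.58% of 4126 beyond 100 kb. The 2 kb stretches followed the same order at a lower level, with 23.8% open at 1 to 2 kb, 6.58% at 2 to 5 kb, 4.68% at 5 to 20 kb, 3.14% at 20 to 100 kb and 0.529% beyond 100 kb. In single libraries the lncRNA share lay above that of the stretches in every class, by 23.9 ± 0.407 points at 1 to 2 kb and by 5.13 ± 0.588 points beyond 100 kb. The near TSSs, within 5 kb of an open coding TSS, were open in 33.8% ± 1.53, against 6.03% ± 0.740 of the far ones beyond 100 kb (mean ± SD, n = 3 libraries). That difference was 27.7 ± 0.937 points.

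**Figure D1:**
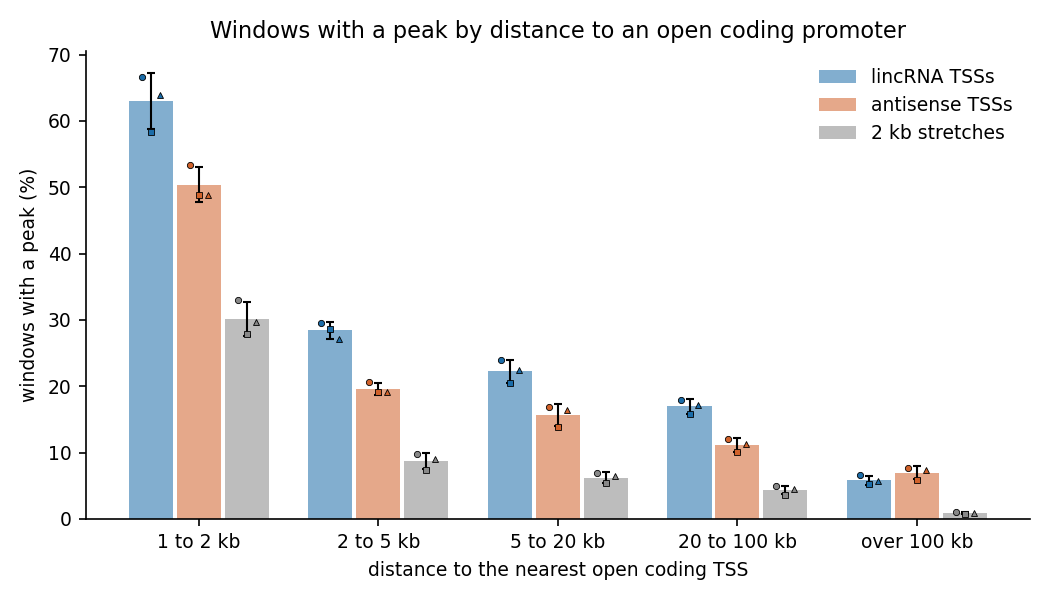
Share of windows with a peak (y axis, %) for lincRNA TSSs, antisense TSSs and 2 kb stretches, by distance to the nearest open coding TSS (x axis). Bars are means of 3 libraries, error bars are SD, and circles, squares and triangles are replicates 1, 2 and 4. The lincRNA bars exceed the antisense bars in every class up to 100 kb (63.0% against 50.4% at 1 to 2 kb), and the order turns beyond 100 kb.

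Part of the lncRNA windows at short range were open by a peak that also belonged to a coding window. In the 1 to 2 kb class, 56.3%, 57.8% and 54.5% of the open lncRNA TSSs in replicates 1, 2 and 4 had no peak other than one that also overlapped a coding window. Over all distances these were 4.28%, 4.71% and 4.39%. With such peaks left out, the share of lncRNA TSSs open in all 3 libraries at 1 to 2 kb was 19.4%, close to the 20.2% at 2 to 5 kb, and the near minus far difference was 17.7 points. Tug1, whose RNA acts in gene repression, shows the pattern at its only member TSS. That TSS, at base 3647536, is internal, since the annotated gene begins at base 3649673 on the minus strand, a start that is no member. The member TSS lies 1.66 kb from that of Morc2a, head to head. Its tallest peak was centred at -1014 bp, toward Morc2a and also toward the annotated start of Tug1. The peak had a height of 0.998, 0.683 and 1.00 and no footprint in any library.

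The open members were nonetheless mostly distant from coding promoters. Their median distance to an open coding TSS was 40.04 kb, against 123 kb for members closed in all 3 libraries, and 189 of the 777 lay beyond 100 kb (24.3%, against 51.7% of all members). RefSeq, a second annotation, has the start of an mRNA within 1 kb of 73 of the 777 (9.40%) and of 11 of these 189 (5.82%), beside 298 of all 7981 members (3.73%). With curated mRNAs alone it was 28 of the 777 (3.60%) and 98 of the 7981 (1.23%). Without the members that have such a start, 9.16% of lncRNA TSSs were open in all 3 libraries, and 4.42% of those beyond 100 kb. Orientation was compared within 5 kb of the open coding TSS. There, 50 of 158 head-to-head TSSs were open in all 3 libraries (31.6%), 43 of 162 inside or past the coding gene on the opposite strand (26.5%), 11 of 41 upstream on the same strand (26.8%) and 7 of 16 downstream on the same strand (43.8%). The median height of the open head-to-head TSSs was 2.04, 1.83 and 2.28 in replicates 1, 2 and 4, 1.14, 1.03 and 1.30 for those inside or past on the opposite strand, 2.52, 1.73 and 2.44 for those upstream on the same strand and 1.22, 0.834 and 1.44 for those downstream on it.

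The comparison of gene types depended on distance. Over all distances, 9.54% of lincRNA TSSs and 10.2% of antisense TSSs were open in all 3 libraries, and the lincRNA share in single libraries was the lower (difference -0.970 ± 0.324 points). This difference was -0.0151 points for TSSs more than 2 kb from any coding TSS (exact p = 1), -0.0896 with peaks of coding windows left out (exact p = 0.75) and -0.164 with windows of 500 bp to each side (exact p = 0.50), and under each of these the libraries differed in sign. Within distance classes the order was the opposite up to 100 kb. The lincRNA share exceeded the antisense share by 12.6 ± 2.84 points at 1 to 2 kb, 8.82 ± 0.822 at 2 to 5 kb, 6.58 ± 0.498 at 5 to 20 kb and 5.86 ± 0.120 at 20 to 100 kb. Beyond 100 kb the lincRNA share was the lower (difference -1.12 ± 0.564 points). The types are spread differently over the classes, with a median distance to an open coding TSS of 143 kb for lincRNAs and 57.3 kb for antisense RNAs. With peaks of coding windows left out, a check added after seeing the data, the difference at 1 to 2 kb was 4.50 ± 6.77 points and differed in sign between libraries (exact p = 0.50). The differences at 2 to 5, 5 to 20 and 20 to 100 kb were then 9.08 ± 0.465, 6.58 ± 0.498 and 5.82 ± 0.155 points.

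An antisense RNA that starts inside a coding gene can be read against the promoter of that host gene. Where the host had a promoter open in all 3 libraries, 114 of 981 antisense TSSs were open in all 3 (11.6%). Where the host promoter was closed in all 3, 40 of 701 were open (5.71%), and where it was open in some libraries, 23 of 181 (12.7%). Host status moved with distance, since 401 of the 701 TSSs in closed hosts lay beyond 100 kb. Inside closed hosts, 9 of 49 TSSs 5 to 20 kb from an open coding TSS were open in all 3 (18.4%), 15 of 247 at 20 to 100 kb (6.07%) and 16 of 401 beyond 100 kb (3.99%). All antisense TSSs of these classes were open in 13.3%, 9.39% and 4.95%, and the part of distance in the split by host was not tested. Pairs of lncRNA TSSs of different genes facing away from each other within 1 kb comprised 175 members. In single libraries they were open in 19.4% ± 0.571, against 11.5% ± 0.982 of members without such a partner (mean ± SD, n = 3), a difference of 7.96 ± 0.886 points. Partner windows overlap, so 1 peak can count for both members. Without a partner, 744 TSSs open in all 3 libraries formed 655 loci, while the 33 paired ones formed only 15. Neat1 and Frmd8os form such a pair and share their tallest peak, so their heights are the same measurement.

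The open share of lncRNA promoters rose with CpG content. The CpG ratio used here divides the observed by the expected CpG count, 500 bp to each side of the TSS, and CpG-rich promoters are known to be accessible in many tissues. In the 5 classes from under 0.2 to over 0.8, the share of lncRNA TSSs open in all 3 libraries was 3.71%, 9.55%, 18.4%, 44.1% and 61.6%. The share of coding TSSs in the same classes was 5.45%, 17.3%, 50.4%, 77.6% and 86.4%. Within every class the lncRNA share was the lower. In single libraries the difference was -2.19 ± 0.272 points in the lowest class, -33.6 ± 0.408 at 0.6 to 0.8 and -23.8 ± 1.74 above 0.8. Few lncRNA promoters are rich in CpG, with 86 above 0.8 and 247 at 0.6 to 0.8 among 7981. Above 0.8, 42 of 59 lncRNA TSSs within 100 kb of an open coding TSS were open in all 3 libraries (71.2%), against 11 of 27 farther away (40.7%). By type, the share open in all 3 libraries was 3.17%, 9.93%, 18.1%, 50.3% and 66.7% for lincRNA TSSs in the 5 classes, and 5.23%, 8.74%, 19.1%, 32.6% and 54.3% for antisense TSSs, so neither type was the higher throughout.

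**Figure D2:**
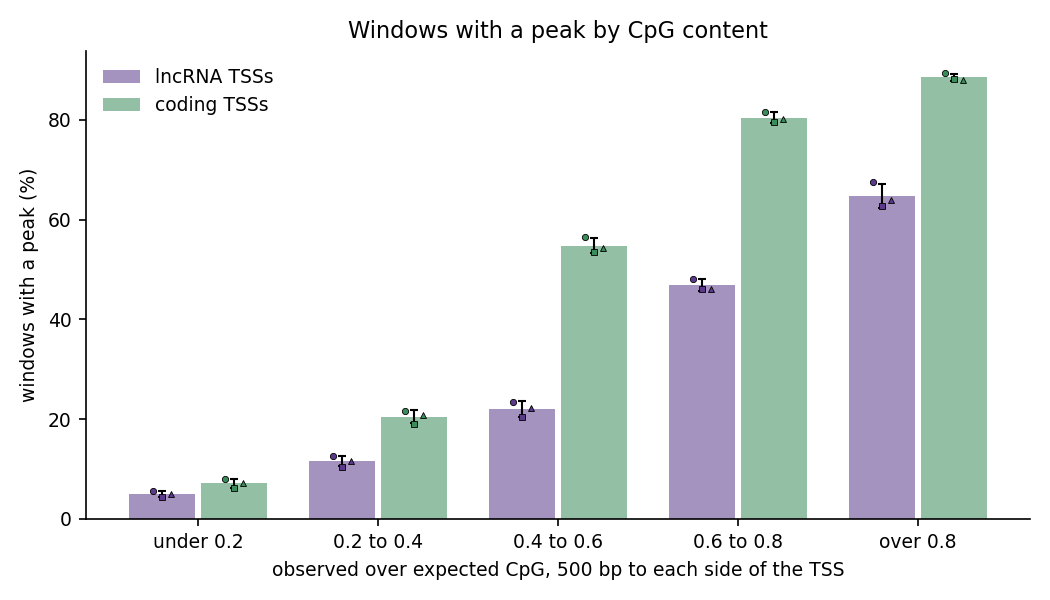
Share of windows with a peak (y axis, %) for lncRNA TSSs and coding TSSs, by observed over expected CpG ratio around the TSS (x axis). Bars are means of 3 libraries, error bars are SD, and circles, squares and triangles are replicates 1, 2 and 4. Both rise with CpG content, and the lncRNA bar is the lower in each class (64.7% against 88.5% above 0.8).

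Repeat sequence and a TATA box were looked at in the same way. A TSS that falls on a base soft-masked as repeat in the reference was open in 6.41% ± 0.761, against 12.9% ± 1.02 for unmasked TSSs (mean ± SD, n = 3 libraries). The letters TATAAA, the core of a TATA box, lay wholly 20 to 40 bases before 3 of the 777 lncRNA TSSs open in all 3 libraries (0.386%) and 88 of the 6872 closed in all (1.28%). Among coding TSSs they stood before 0.644% of open and 3.003% of closed ones. The 3 lncRNA TSSs belong to 2 genes. The shorter TATAA stood before 14 of the 777 (1.80%), which include Mir142hg, Lncpint and 2 neighbouring starts of Snhg12, and before 3.52% of the closed lncRNA TSSs. For coding TSSs its share was 1.10% of open and 5.34% of closed ones.

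Peaks at lncRNA promoters were less centred on the annotated start than at coding promoters. The tallest peak of an open window was centred within 150 bp of the TSS in 38.2% ± 1.34 of lncRNA windows, against 64.3% ± 0.814 of coding windows (mean ± SD, n = 3 libraries). For lincRNAs the share was 40.9% ± 1.49 and for antisense RNAs 32.4% ± 2.08. The peak lay over the TSS base itself in 31.3% ± 0.490 of open lncRNA windows and 59.6% ± 0.978 of open coding windows. Its centre was upstream of the TSS in 59.8% ± 0.924 of lncRNA windows and 72.1% ± 0.723 of coding windows. A single peak was all there was in 74.1% ± 2.52 of open lncRNA windows, against 56.1% ± 2.95 of coding windows. At Mir142hg the tallest peak was centred at -26.5 bp from the TSS, where negative is upstream. At Malat1 it was centred at -969.5 bp, and in replicate 4 a different peak, over the TSS, was the tallest.

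**Figure D3:**
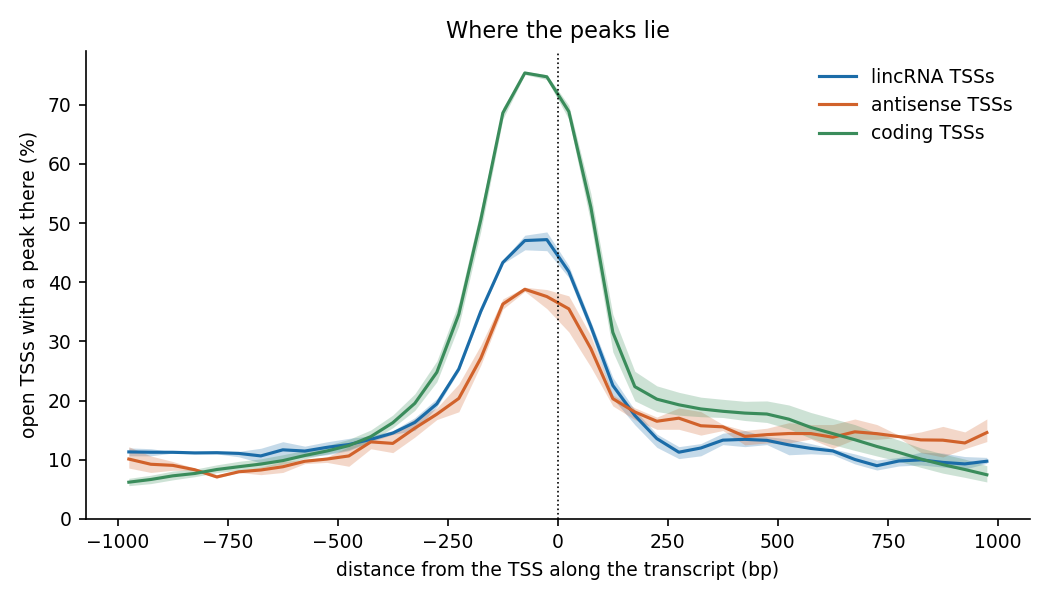
Share of open TSSs with a peak at each position (y axis, %) against distance from the TSS along the transcript (x axis, bp, upstream negative), in bins of 50 bp. Lines are means of 3 libraries for lincRNA, antisense and coding TSSs, and shading spans the lowest to the highest library. All 3 lines crest just upstream of the TSS, highest for coding and lowest for antisense TSSs, in the order of the shares centred within 150 bp (40.9% lincRNA, 32.4% antisense, 64.3% coding).

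Open lncRNA promoters had low peaks. The median height of the tallest peak in an open window was 1.19, 1.11 and 1.41 in replicates 1, 2 and 4, against 3.70, 3.22 and 4.79 at open coding TSSs. The log2 ratio was -1.65 ± 0.11. The median of open lncRNA TSSs exceeded the median of all peaks of the same library in each replicate. The former takes the tallest peak of each window and the latter every peak, which favours the former. Of open lncRNA windows, 10.7%, 8.94% and 9.75% held a peak among the tallest 10% of the library, against 43.4%, 37.0% and 40.6% of open coding windows. The lincRNA median exceeded the antisense median by 0.12 ± 0.06 on the log2 scale, and the near median exceeded the far median by 0.83 ± 0.20. Heights went with recurrence. The 777 TSSs open in all 3 libraries had a median of 1.48, 1.19 and 1.71, while TSSs open in 1 library had 0.466, 0.417 and 0.520. Over the 777 TSSs, Spearman's rho of heights was 0.944 to 0.948 between libraries, a description across TSSs that share libraries.

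Footprints were found in fewer lncRNA than coding promoters. Among open lncRNA windows, 87.6%, 87.1% and 83.3% had a footprint overlapping a peak by at least 1 bp in replicates 1, 2 and 4. Of open coding windows, 96.8%, 96.1% and 95.3% had one, a difference of -10.1 ± 1.68 points. Of the 777 TSSs, 626 had footprints in all 3 libraries (80.6%). Per kb of peak, the lncRNA windows held 10.5 ± 0.230 footprints and the coding windows 12.8 ± 0.179. The lincRNA windows held 10.7 ± 0.394 and the antisense windows 9.87 ± 0.109. With loci spaced by at least 50 kb, the windows with most footprints were those of Gm6410 with 17, 16 and 16, 5031425E22Rik with 18, 10 and 17, Neat1 with 12, 14 and 18, which the window of Frmd8os shares, and 2410080I02Rik with 13, 15 and 13. The TSS of 5031425E22Rik lies 1.13 kb from that of Kmt2e, a coding gene that encodes a chromatin regulator.

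Letter motifs were counted at open lncRNA and coding promoters. For each distinct tallest peak the 201 bp around its midpoint were searched on both strands for 13 motifs, in 674 lncRNA and 10138 coding windows and, as a background, in 52701 autosomal peaks of replicate 1. The CTCF motif, bound by a factor of chromatin loop boundaries, was in 9.50% of lncRNA windows, 1.54% of coding windows and 6.99% of all peaks. It lay in footprints of all 3 libraries in 8.16% of lncRNA windows, 1.35% of coding windows and 4.20% of all peaks. For the letters GGGCGG these shares were 12.6%, 37.3% and 9.13%. Each other motif lay in such footprints in at most 1.63% of lncRNA windows. The background peaks need not recur in the other libraries, while the lncRNA and coding windows do. The letters GAGGAAGT were in 8.46% of lncRNA windows, 2.999% of coding windows and 6.28% of all peaks. They share GGAAGT with the ETS pattern CCGGAAGT, which was in 2.97%, 7.90% and 2.11%. The AP-1 letters TGANTCA were in 10.5%, 3.06% and 7.83%, and the SP and KLF letters GGGCGG in 27.3%, 61.9% and 24.0%. The C/EBP letters TTGCNNAA were in 8.75%, 5.17% and 9.40%, and the IRF letters GAANNGAAA in 6.68%, 3.56% and 6.83%. The RUNX letters TGTGGTT were in 4.45% of lncRNA windows, 2.36% of coding windows and 5.60% of all peaks. The NRF1 letters GCATGCGC were in 2.23%, 5.43% and 1.61%, and the CRE letters TGACGTCA in 1.93%, 3.70% and 1.23%. The NFY letters CCAATCA were in 4.45% of lncRNA windows, 9.22% of coding windows and 3.72% of all peaks. The YY1 letters AAGATGGCG were in 0.742%, 3.11% and 0.926%. The GATA letters AGATAAG were in 1.93% of lncRNA windows, 0.523% of coding windows and 1.29% of all peaks. Beyond 100 kb from an open coding TSS, GAGGAAGT was in 12.4% of 161 windows and GGGCGG in 19.3%, against 7.21% and 29.8% of 513 windows nearer by. In lncRNA windows with a CpG ratio over 0.6, GGGCGG was in 68.0% of 128 and CTCF in 4.69%, while with a ratio up to 0.4 GGGCGG was in 13.4% of 418 and CTCF in 11.5%.

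Named lncRNAs were followed in lists by role, where a gene is called open when its best TSS had a peak in all 3 libraries, to be read against 9.74% of all lncRNA genes. Ubiquitous or nuclear lncRNAs were open in 9 of 10 genes with a member TSS, and the median of their mean heights was 2.04 over the open ones, beside 1.40 over all 684 open genes. Tug1 is among the 9, although its only peak lay toward Morc2a, as described above. A gene with several member TSSs has more ways to be called open. Malat1, Neat1, Lncpint, Pvt1 and Dubr have 4, 4, 5, 3 and 3, while 714 of all 7024 genes have 2 or more. Neat1, the scaffold of paraspeckles, had a height of 8.27, 6.49 and 11.2 in replicates 1, 2 and 4. Malat1, an abundant RNA of nuclear speckles, had 9.94, 8.26 and 11.0. Both exceeded the coding median in each library. Dubr had 4.32, 3.51 and 5.41, also above the coding median in each library. The gene 2900097C17Rik, which RefSeq names Norad, an RNA that binds Pumilio proteins, had 1.47, 1.54 and 2.05. Pvt1, the neighbour of Myc 50.6 kb away, had 1.04, 0.860 and 1.09, below the lncRNA median in all 3 libraries. Trp53cor1, 14.6 kb from the cell cycle inhibitor gene Cdkn1a, had 1.78, 1.76 and 2.14. Lncpint had 2.00, 1.82 and 2.29 and Epb41l4aos 3.05, 3.02 and 4.37. Miat had no peak in any library.

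Hosts of small RNAs were open in 7 of 11 genes, with a median height of 2.39. The snoRNA hosts Snhg6, Snhg12 and Snhg20 had mean heights of 3.03 ± 0.549, 2.84 ± 0.388 and 2.03 ± 0.237 (SD, n = 3 libraries). The 4 closed hosts were Mir124a-1hg, Mir124-2hg, Mir670hg and Dnm3os. The 4 open microRNA hosts kept the same order of height in each library. Over all 777 TSSs open in all 3 libraries, heights also ranked alike between libraries (Spearman's rho 0.944 to 0.948). Mir142hg, precursor of the blood cell microRNA miR-142, had 7.15, 5.27 and 8.92, and Mir17hg, precursor of the miR-17 to miR-92 cluster of proliferating cells, had 2.51, 1.97 and 2.70. Mir155hg, precursor of miR-155 that is induced when macrophages are activated, had 0.602, 0.585 and 0.631, and Mir9-3hg had 0.503, 0.532 and 0.545. The heights of these 4 did not overlap. The tallest peaks of Mir17hg and Mir9-3hg were centred away from the TSS, at -628.5 and -754.5 bp (median over libraries). The TSS of Mir155hg has a CpG ratio of 0.87, in the class above 0.8 where most members were open.

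The immune list was open in 5 of 9 genes, with a median height of 2.26, and it shares Mir142hg and Mir155hg with the list of hosts. Mirt1 had 2.65, 2.15 and 2.95 and Ptgs2os2, 64.9 kb from the prostaglandin synthase gene Ptgs2, had 2.19, 1.77 and 2.82. Gm14005, which RefSeq names Morrbid, an RNA known to control the lifespan of mouse myeloid cells, had 1.99, 1.86 and 2.56 and lies 258 kb from the nearest open coding TSS. All 3 exceeded the lncRNA median in each library. Mirt2, AW112010, Ifngas1 and Dnmt3aos had no peak in any library. The TSS of Mirt1 has a CpG ratio of 0.13, and that of AW112010 one of 0.14.

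Imprinted lncRNAs were open in 1 of 6 genes. Kcnq1ot1, whose promoter lies in the imprinting control region inside Kcnq1 and whose RNA silences neighbouring genes on the paternal chromosome, had a height of 3.56, 2.38 and 3.23 with 8, 7 and 7 footprints. H19, Meg3, Mirg, Airn and Nespas had no peak in any library. The alleles of the hybrid were not separated here. Developmental lncRNAs, mostly from homeobox gene clusters, were open in 1 of 20 genes. Hoxd3os1, inside Hoxd3, had 0.981, 1.00 and 0.817, below the lncRNA median in each library. Zfhx2os had a peak of 0.412 in replicate 1 only, and the other 18, such as Hotair, Hottip and Hotairm1, had none. Hotairm1 starts 1.42 kb and Pax6os1 4.86 kb from an open coding TSS.

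**Figure D4:**
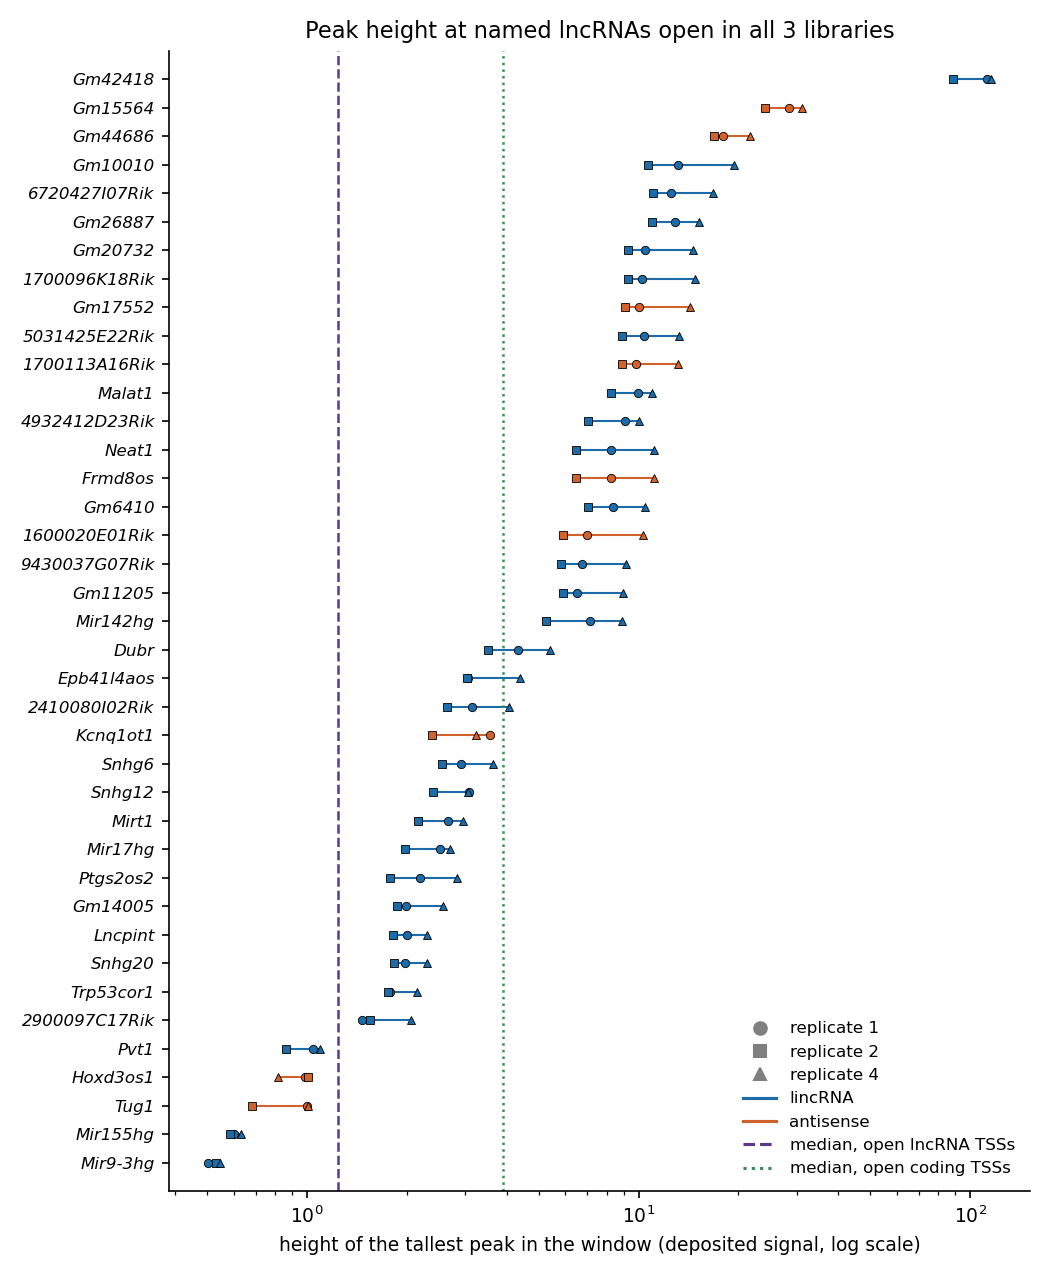
Height of the tallest peak in the window (x axis, deposited signal, log scale) for each named lncRNA open in all 3 libraries (y axis), with circles, squares and triangles for replicates 1, 2 and 4 and a line from the lowest to the highest. Blue is lincRNA and orange antisense, and the vertical lines are the means over libraries of the medians of open lncRNA TSSs (1.24) and open coding TSSs (3.90). Gm42418 stands apart at 88.8 to 115, and Mir155hg and Mir9-3hg lie lowest.

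The tallest peaks were chosen by height, so their heights are given without a test. Gm42418 on chromosome 17 had 113, 88.8 and 115 with only 2, 2 and 1 footprints, while the highest open coding window reached 33.7, 24.95 and 28.98. RefSeq places Rn18s-rs5, a pseudogene of 18S ribosomal RNA, in that window, and sequence copies of this kind share reads, so its height is uncertain. The antisense Gm15564, inside Kpna1 and 2.17 kb from its TSS, had 28.5, 24.0 and 31.2 with 2, 2 and 3 footprints. The measured TSS of Gm15564 is internal, since the annotated gene begins at base 35983230 on the minus strand. Its tallest peak was centred at -599.5 bp, toward that annotated start and also toward the TSS of Kpna1. Gm44686, antisense inside Chd2 and 3.73 kb from its TSS, had 18.0, 16.9 and 21.7. The next lincRNAs were Gm10010 with 13.1, 10.7 and 19.4, 6720427I07Rik with 12.5, 11.1 and 16.7, and Gm26887 with 12.9, 11.0 and 15.2. These 3 had 6 to 12 footprints in every library. Then came Gm20732, described below, and 1700096K18Rik with 10.2, 9.30 and 14.8. The remaining tallest antisense TSSs, those of Gm17552, 1700113A16Rik, Frmd8os and 1600020E01Rik, had mean heights of 11.1, 10.6, 8.64 and 7.74. The measured TSS of 1600020E01Rik lies 1.15 kb head to head from that of the coding gene Pcbp1. It is internal, since the annotated gene begins at base 86526247 on the plus strand. The tallest peak was centred at -863.5 bp, toward Pcbp1 and also toward the annotated start of 1600020E01Rik.

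Some tall lncRNA peaks lay beyond 100 kb from any open coding TSS. Gm10010, 155 kb away, and Gm20732, 104 kb from that of Zfat, were the tallest after Gm42418. Gm20732 had 10.5, 9.28 and 14.6 with 10, 10 and 19 footprints and a CpG ratio of 1.07. 4932412D23Rik had 9.12, 7.02 and 10.001, and RefSeq has an mRNA start within 1 kb of it, in a window that also overlaps the coding gene Zbtb20. 9430037G07Rik, 117 kb from Syncrip, had 6.74, 5.83 and 9.16, and Gm11205, 174 kb from Evi2a, had 6.51, 5.90 and 8.96. The window of Gm11205 also holds a transfer RNA gene and that of 9430037G07Rik a snoRNA gene in RefSeq. The CpG ratios of these and Gm42418 lay between 0.635 and 1.07, against a median of 0.30 for the far TSSs open in all 3 libraries.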

How the data were processed

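DNase-seq peaks, footprints and cut-rate tables of 3 monocyte libraries were used. Per the file headers, the authors derived each from 1 library's filtered alignment to mm10, with no pooling; no source used here names the aligner or peak caller. The height of a peak is the signal the authors deposited, on a scale not stated, and the cut-rate tables hold deposited q-values (FDR), all under 0.05. The read depth is unknown, so no interval is given. Windows of 1 kb to each side of GENCODE M21 basic TSSs were overlapped with the longer peak list in Python 3.11.15 with numpy 2.4.6, pandas 2.3.3, scipy 1.17.1 and pysam 0.24.0, tested on simulated data. FDR values under 0.05 lay in 13.7%, 11.6% and 12.5% of lncRNA windows, and in 1.33%, 1.02% and 0.894% of those without a peak. Differences are paired by library, with the exact sign-flip permutation test. Members, lists and tests were chosen with earlier results of these data known. Genes named come from the lists, the 6 tallest loci of each type and of those beyond 100 kb, spaced by 50 kb, and the 4 TSSs with most footprints. Alternatives changed the peak list, window, overlap, annotation, unit and libraries.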

Additional observations from a re-analysis of the deposited data

How the results depend on the processing

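Of 69 recomputations, 63 kept their direction or, for shares without a test, moved by less than the SD between libraries; 6 moved by more and 0 reversed. Direction here is the sign of the mean over libraries, also where single libraries differed in sign. Taking the TSSs of all transcripts of coding genes returned the main values to 3 digits, so that setting tested little. No test can pass a threshold of 0.05 with 3 libraries. The percentage of lncRNA TSSs open in all 3 libraries was 9.74; it was 7.25 with the shorter peak list, 5.74 with the taller 50% of peaks, 7.48 with windows of 500 bp, and 9.90 to 10.8 for both remaining libraries when 1 was left out, the highest without replicate 2. The percentage with a footprint overlapping a peak was 86.0, 92.7 with the shorter list and 95.9 with the taller 50%, and 85.2 to 87.4 without 1 library. The near minus far difference ranged between 17.3 points with windows of 500 bp and 27.9 with the gene as the unit. The lincRNA minus antisense difference over all distances was small throughout, between -1.29 with the gene as the unit and -0.0151 for TSSs more than 2 kb from any coding TSS (exact p = 1). It was -0.164 with windows of 500 bp (exact p = 0.50) and -0.0896 with peaks of coding windows left out (exact p = 0.75). The cause of these shifts was not tested. Left-out libraries gave -1.13 to -0.808 for it, -41.1 to -40.9 for lncRNA minus coding, 27.5 to 28.4 for near minus far and -1.70 to -1.59 for the log2 height ratio. Leaving out members with a RefSeq mRNA start, added after seeing the data, gave 9.16. No paired analysis was possible because all 3 libraries belong to 1 group and replicate numbers match no other group; the differences above are between sets of TSSs within each library. Footprint calls and low peaks depend on a read depth that is unknown here.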
